A study of Homo sapiens with 3 samples.

Results

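The 10 genes described here encode heat shock proteins. They were taken as a fixed list: HSPA1A, HSPA1B, HSPA1L, HSPA5, HSPA8, HSP90AA1, HSP90AB1, HSPD1, HSPE1 and DNAJB1, out of 20033 protein-coding genes in the RefSeq table of GRCh38.p14. For each gene, every called summit of SP1 or H3K27ac within 50 kb of the gene span was collected with its distance to the gene. There were 11 different SP1 summits among 5570 and 1 H3K27ac summit among 3201. The summits came from CUT&RUN, in which nuclease tethered by an antibody cuts out bound DNA in nuclei for sequencing. All 3 libraries were from H1299, an established human lung cancer line that the labels call adenocarcinoma, and the labels name no treatment, genetic change or heat shock. The libraries used were those for the transcription factor SP1 and for H3K27ac, an acetylation of histone H3 at active promoters and enhancers, and the IgG control library was not analysed here. Each antibody had 1 library, which leaves every value without a replicate, and no test was run.

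Heat shock proteins are molecular chaperones that bind unfolded proteins and help them reach or regain their native shape. HSP70 proteins work with DNAJ co-chaperones and pass some clients to HSP90, while the chaperonin of mitochondria folds imported proteins in a closed chamber. Some chaperone genes are transcribed at all times, and others are induced when the heat shock factor HSF1 binds heat shock elements in their promoters. SP1 binds GC boxes, which are common in promoters of both kinds.

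In this description 4 genes counted as inducible. HSPA1A and HSPA1B encode the stress-induced cytosolic HSP70, DNAJB1 its DNAJ partner, and HSP90AA1 the stress-induced form of HSP90. The other 6 counted as constitutive. HSPA8 encodes the cognate HSP70 of unstressed cells, HSP90AB1 the steadily expressed HSP90, HSPA5 the HSP70 of the endoplasmic reticulum, and HSPA1L an HSP70 relative best known from testis. HSPD1 and HSPE1 encode the mitochondrial chaperonin and its lid. Genes of 1 locus share summits and are not independent. HSPA1L, HSPA1A and HSPA1B are neighbours on chromosome 6, and HSPD1 and HSPE1 start side by side on chromosome 2 and run apart.

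The bases before some of the starts show what the 2 classes share, namely GC boxes in every window and heat shock elements in both classes. They run 5′ to 3′ towards the start and come from RefSeq (GRCh38.p14), whose promoter table listed start sites for all 10 genes, 16 in number. Starts of a gene are numbered from its 5′ side. Capitals mark GC boxes (GGGCGG, or CCGCCC on the other strand) and heat shock elements (GAANNTTC or TTCNNGAA). Matches that touch or overlap run together. Heat shock elements were in 9 of the 16 windows. The inducible genes come first, with DNAJB1 and HSP90AA1 shown at their start with the most heat shock elements.
HSPA1A (chr6:31815293-31815542, plus strand): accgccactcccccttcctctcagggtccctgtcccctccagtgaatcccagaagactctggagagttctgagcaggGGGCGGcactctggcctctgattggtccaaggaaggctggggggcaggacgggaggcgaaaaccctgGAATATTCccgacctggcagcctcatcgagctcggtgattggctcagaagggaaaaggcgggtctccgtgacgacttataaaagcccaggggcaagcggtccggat
HSPA1B (chr6:31827488-31827737, plus strand): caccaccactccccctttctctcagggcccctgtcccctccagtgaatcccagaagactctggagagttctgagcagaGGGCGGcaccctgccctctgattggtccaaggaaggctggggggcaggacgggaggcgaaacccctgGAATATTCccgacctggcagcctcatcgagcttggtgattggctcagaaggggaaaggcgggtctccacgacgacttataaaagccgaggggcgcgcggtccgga
DNAJB1 start 2 (chr19:14518398-14518647, minus strand): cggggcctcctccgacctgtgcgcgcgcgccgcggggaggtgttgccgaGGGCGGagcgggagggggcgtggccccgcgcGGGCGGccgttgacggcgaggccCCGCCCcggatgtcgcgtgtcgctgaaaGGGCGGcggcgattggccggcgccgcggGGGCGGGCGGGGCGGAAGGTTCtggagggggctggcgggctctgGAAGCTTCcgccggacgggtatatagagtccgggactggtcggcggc
HSP90AA1 start 2 (chr14:102087045-102087294, minus strand): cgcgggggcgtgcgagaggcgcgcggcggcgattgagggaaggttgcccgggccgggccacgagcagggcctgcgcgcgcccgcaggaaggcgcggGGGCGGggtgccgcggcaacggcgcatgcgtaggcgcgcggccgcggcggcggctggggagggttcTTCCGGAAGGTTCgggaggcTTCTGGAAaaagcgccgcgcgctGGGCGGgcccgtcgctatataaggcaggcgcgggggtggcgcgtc

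The constitutive genes follow. HSP90AB1 is shown at the start nearest to its SP1 summit and at its start with the most heat shock elements, and HSPD1 at its start with heat shock elements.
HSP90AB1 start 2 (chr6:44246851-44247100, plus strand): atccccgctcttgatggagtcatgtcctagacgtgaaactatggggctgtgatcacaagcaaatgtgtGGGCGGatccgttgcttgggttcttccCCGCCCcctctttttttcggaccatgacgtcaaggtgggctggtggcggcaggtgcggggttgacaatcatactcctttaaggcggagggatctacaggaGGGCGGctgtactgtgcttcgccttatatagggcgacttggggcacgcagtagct
HSP90AB1 start 3 (chr6:44247693-44247942, plus strand): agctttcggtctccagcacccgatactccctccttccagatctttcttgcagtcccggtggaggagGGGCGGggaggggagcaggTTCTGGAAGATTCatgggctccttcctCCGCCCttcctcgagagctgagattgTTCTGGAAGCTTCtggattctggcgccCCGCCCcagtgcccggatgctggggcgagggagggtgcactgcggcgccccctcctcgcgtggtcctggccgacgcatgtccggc
HSPA8 (chr11:123062137-123062386, minus strand): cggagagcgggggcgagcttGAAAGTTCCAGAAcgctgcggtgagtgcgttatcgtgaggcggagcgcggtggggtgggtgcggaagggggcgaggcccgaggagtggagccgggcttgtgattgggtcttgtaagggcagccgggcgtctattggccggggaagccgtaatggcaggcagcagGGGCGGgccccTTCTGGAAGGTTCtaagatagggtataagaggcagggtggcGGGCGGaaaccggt
HSPA5 (chr9:125241344-125241593, minus strand): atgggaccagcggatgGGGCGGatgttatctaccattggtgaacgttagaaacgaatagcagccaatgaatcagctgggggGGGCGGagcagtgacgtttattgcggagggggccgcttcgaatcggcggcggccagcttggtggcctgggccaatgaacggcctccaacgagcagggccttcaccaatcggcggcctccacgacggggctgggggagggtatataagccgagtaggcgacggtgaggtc
HSPD1 start 2 (chr2:197499841-197500090, minus strand): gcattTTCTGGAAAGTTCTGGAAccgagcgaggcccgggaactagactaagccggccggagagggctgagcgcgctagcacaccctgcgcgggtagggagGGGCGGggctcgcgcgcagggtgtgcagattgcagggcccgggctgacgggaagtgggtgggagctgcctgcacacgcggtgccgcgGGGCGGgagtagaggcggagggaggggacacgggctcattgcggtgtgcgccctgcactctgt
HSPE1 to HSPD1, the bases between their diverging starts (chr2:197500275-197500378, plus strand): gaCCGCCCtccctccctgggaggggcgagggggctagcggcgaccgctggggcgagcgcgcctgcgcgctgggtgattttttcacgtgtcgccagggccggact

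SP1 was called near most of the genes. An SP1 summit lay within 50 kb of 9 of the 10 gene spans, against 41.1% of all protein-coding genes. HSPA8 was the exception. At closer range, 4 of the 10 had an SP1 summit within 1000 bases of a gene end (95% Wilson interval 16.8 to 68.7%), against 13.7% of all genes. Measured from the listed start sites, 5 of the 10 had one within 1000 bases (23.7 to 76.3%), against 14.9% of the 15842 genes with a listed start. A gene with more starts has more places to be counted. Both members with 3 starts, DNAJB1 and HSP90AB1, had a summit there, against 21.7% of such genes, and of the 6 members with 1 start 2 had one (HSPA1B, HSPA1L), against 13.1%. These intervals cover counting error only and treat genes as independent, which neighbours are not. H3K27ac was called near 3 of the 10 within 50 kb, against 15.7% of all genes, and all 3 were the HSPA1 genes with the same summit.

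The 50 kb measure also moves with how many genes lie around a member. Other protein-coding genes within the same 50 kb numbered 9 at HSPA1L and 7 each at HSPA1A, HSPA1B, HSP90AB1 and DNAJB1. They numbered 4 at HSPD1 and HSPE1, 3 at HSPA5, 2 at HSP90AA1 and 1 at HSPA8, where the median over all genes was 2. Of all genes with 5 to 9 such neighbours, 69.3% had an SP1 summit within 50 kb, where 5 of 5 members did. The share was 40.4% with 2 to 4 neighbours, where 4 of 4 members had one, and 25.0% with 0 or 1, where HSPA8 had none. The part of gene density in the 9 of 10 was not tested.

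Of the 11 SP1 summits, 10 lay within 1000 bases of a start site of some protein-coding gene. For 4 of the 10 genes, HSPA5, HSPD1, HSPE1 and HSPA8, the nearest SP1 summit was 32916 bases or more from the gene itself. Scores, the −log10 of the peak caller's p or q value, ran from 4.91 to 18.4 with a median of 7.30 over the 11 summits. The whole SP1 list had a median of 6.17 and quartiles of 4.77 and 9.04. Just inside the 50 kb limit was an SP1 summit at 48525 bases from HSPA1L. The nearest ones outside it were an H3K27ac summit at 68938 bases from HSP90AA1 and an SP1 summit at 73564 bases from HSP90AB1.

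**Figure D1:**
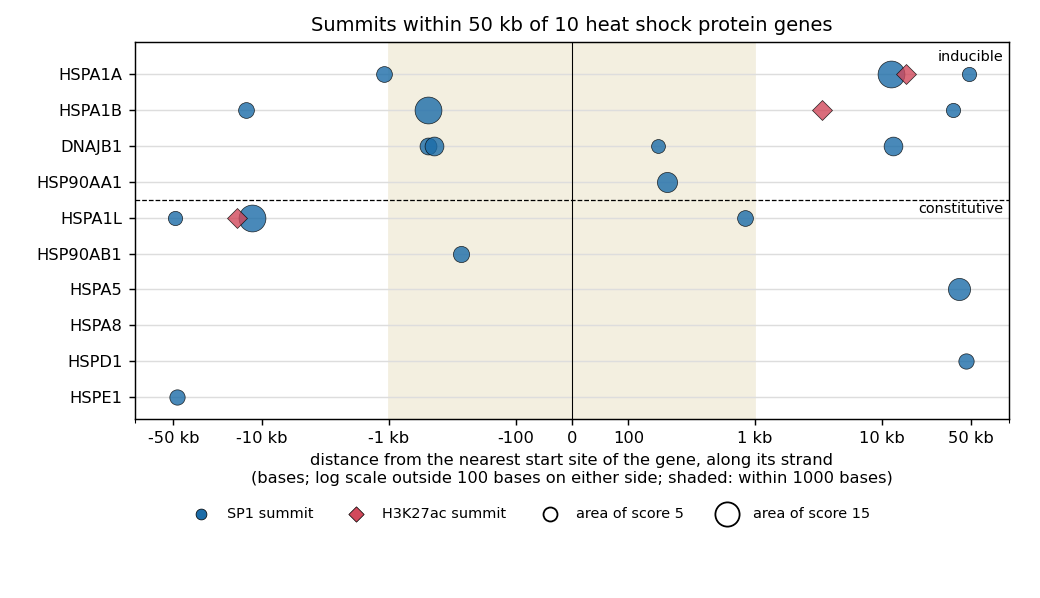
Called summits within 50 kb of each gene, placed by distance in bases from the nearest start site of that gene along its strand (log scale outside the central 100 bases on each side), with marker area proportional to score. SP1 summits fall in the shaded 1000 bases around a start for HSPA1B, DNAJB1, HSP90AA1, HSPA1L and HSP90AB1, and the row of HSPA8 is empty.

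Among the inducible genes, HSPA1B had the highest SP1 score. HSPA1B spans chr6:31827738-31830254. Its summit at 31827243 lay 495 bases before the start with a score of 18.4, above 94.7% of the SP1 list and above 91.1% of the 2261 SP1 summits within 1000 bases of a protein-coding start. On the other side of the gene, 820 bases past its end, was the H3K27ac summit at 31831074, with a score of 5.10, above 51.9% of the H3K27ac list. SP1 and H3K27ac were thus called on opposite sides of the gene, 1 upstream and 1 downstream. That H3K27ac position was in a deposited region of its own, chr6:31830898-31831116, which ranked 2668 of 2710. Summits of both kinds within 1000 bases of an end were found at 0.17% of protein-coding genes.

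HSPA1A, the other inducible HSP70 gene, had no summit of either kind within 1000 bases. It spans chr6:31815543-31817942, and its start is 12195 bases from that of HSPA1B. Its nearest SP1 summit, at 31814448 with a score of 6.36, lay 1095 bases before its start, just outside the limit. The same summit lay inside HSPA1L (chr6:31809619-31815283), 835 bases past the start of that gene, which runs the opposite way. The starts of HSPA1L and HSPA1A are 260 bases apart, and no summit was called between them. The remaining SP1 summit of this locus, at 31863808 with a score of 5.20, was 33554 bases from HSPA1B. It lay inside SLC44A4 and 987 bases before the start of NEU1, a lysosomal sialidase gene.

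The 2 HSP70 copies differ little in sequence at their starts. The 300-base windows of HSPA1A and HSPA1B, from 250 bases before the start to 50 after it, matched in 277 of 301 aligned columns (92.0%), with an identical run of up to 49 bases. For comparison, HSPA1A and HSPA8 matched in 42.6% of columns. As the sequences above show, both copies have 1 GC box, at 173 and 172 bases before the start, and 1 heat shock element, at 106 and 105 bases. Both also have a TATAAA box, at 30 and 29 bases. How reads that match both copies were placed is not given in the sources used here, and its part in the difference between the copies was not tested.

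**Figure D2:**
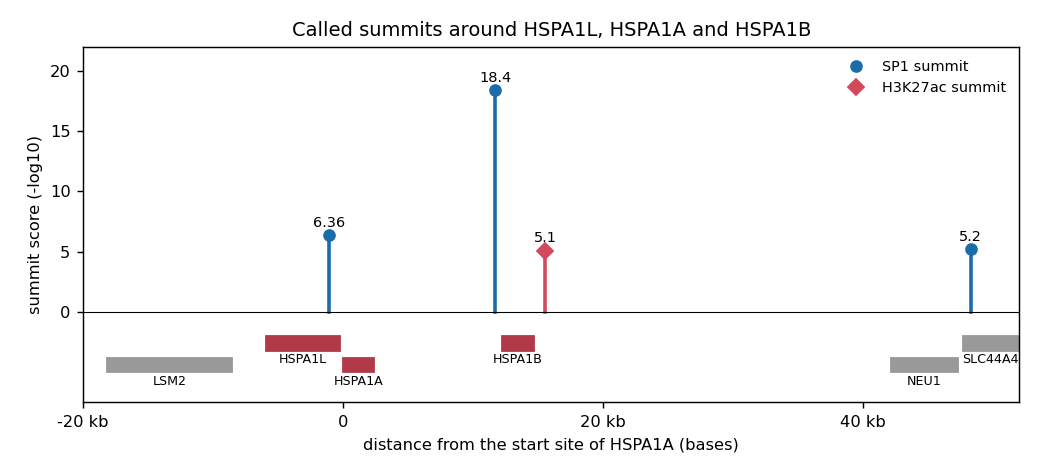
Score (−log10 of the caller's p or q value) of the called summits against distance in bases from the HSPA1A start site, with gene spans as bars below. The SP1 summit of 18.4 stands before HSPA1B, the H3K27ac summit of 5.10 past its end, and nothing was called between the HSPA1L and HSPA1A starts. Scores of the 2 libraries are not on a common scale.

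DNAJB1, the co-chaperone that stimulates the HSP70 ATPase, had the most SP1 summits. The gene spans chr19:14514769-14560391 on the minus strand and has 3 listed starts. A summit of 4.91 at 14518225 lay 172 bases past start 2, and one of 7.30 at 14518884 lay 487 bases before it, 659 bases from the first. Another summit, of 9.05 at 14529713, was 442 bases before start 1. It was nearer to TECR, a gene of fatty acid elongation that runs the other way, being 119 and 153 bases past its 2 listed starts. It is counted for both genes. DNAJB1 was therefore 1 of 10 protein-coding genes (0.0631%) with 3 or more SP1 summits within 1000 bases of their starts, and 1 of 2 among the 857 genes with exactly 3 listed starts (0.233%). Summits numbering 2 or more were at the starts of 1.7% of genes, and no member other than DNAJB1 had as many.

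The SP1 summit farthest from DNAJB1, at 14505776 with a score of 8.98, lay 8993 bases outside the gene and 9649 bases from the nearest protein-coding start, that of GIPC1. It was the only one of the 11 SP1 summits inside a deposited SP1 region, chr19:14505651-14505861, which ranked 552 of 2356. By gene ends DNAJB1 counted as having no SP1 summit, since the 3 inside the gene were 3456 bases or more from either end of its span. No H3K27ac summit was closer to DNAJB1 than 598492 bases.

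HSP90AA1 had 1 SP1 summit, at the outer of its 2 starts. The gene spans chr14:102080742-102139749 on the minus strand. The summit at 102139549, with a score of 10.3, lay 200 bases past start 1, inside the overlap with WDR20, which runs the other way. It lay 126 bases past 1 WDR20 start and 348 bases before the other. Start 2, at 102087044, is 52505 bases from that summit, and no SP1 summit was called near it. The window of start 2 held 3 heat shock elements and 2 GC boxes, and that of start 1 had 1 GC box and no heat shock element. The SP1 summit of HSP90AA1 was thus at the start without heat shock elements. The nearest H3K27ac summit was 68938 bases away.

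Among the constitutive genes, HSP90AB1 and HSPA1L had an SP1 summit within 1000 bases of a start. HSP90AB1 (chr6:44246194-44253883) had a summit of 6.69 at 44246829, inside the gene. This position is 635 bases past start 1, 272 bases before start 2 and 1114 bases before start 3. At the other HSP90 gene the summit scored 10.3. The 2 positions stood above 55.8% and 80.7% of the SP1 list. The nearest H3K27ac summit to HSP90AB1 was 450317 bases away.

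HSPA5, HSPD1 and HSPE1 had SP1 summits within 50 kb only at other genes. For HSPA5 (chr9:125234853-125241343) the summit at 125200630 was 34223 bases from the gene, with a score of 12.5, the second highest of the 11. It lay 88 bases past the start of RABEPK, and 234 bases before the start of LOC105376271, whose window held it. For HSPD1 (chr2:197486584-197500274) and HSPE1 (chr2:197500379-197503449) the only SP1 summit was 1 position, 197453668, with a score of 6.02. It was 116 bases past a start of COQ10B, a gene of coenzyme Q function, 32916 bases from HSPD1 and 46711 bases from HSPE1. No summit was called in the 104 bases between the diverging HSPD1 and HSPE1 starts. The nearest H3K27ac summit was 281150 bases from HSPA5 and far from the chaperonin pair, at 1525201 bases from HSPD1 and 1522026 from HSPE1.

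HSPA8, the constitutive HSP70, stood farthest from SP1 of the 10. It spans chr11:123057489-123062462. Its nearest SP1 summit was 557181 bases away with a score of 3.75, a distance exceeded by 15.2% of protein-coding genes. Its nearest H3K27ac summit, of 6.47, was 878341 bases away. The HSPA8 window printed above nevertheless held 2 GC boxes and 4 heat shock elements. The values used here are called summits, which show nothing of weaker signal at HSPA8.

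Over the 10 genes, the nearest SP1 summit was at a median distance of 795 bases from the gene span, against 85591 over all protein-coding genes. For H3K27ac the median was 365733 bases, against 319822. An SP1 summit lay inside the span of 4 members, against 12.7% of all genes, and an H3K27ac summit inside none, against 5.67%. The members' median was thus the shorter one for SP1 and slightly the longer one for H3K27ac. The H3K27ac list had a summit within 1000 bases of a start at 0.757% of genes with a listed start. Long distances to its summits therefore do not show that the mark is absent. The spans of HSP90AA1 and DNAJB1 are long, with 59008 and 45623 bases, and a long span is more likely to hold a summit.

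Inducible and constitutive genes were then set side by side. An SP1 summit was within 1000 bases of a start for 3 of the 4 inducible genes (HSPA1B, DNAJB1, HSP90AA1). It was so for 2 of the 6 constitutive ones (HSPA1L, HSP90AB1). HSP90AA1 was counted through start 1, whose window held no heat shock element, and its summit was nearer to a start of WDR20. By gene ends the counts were 2 of 4 and 2 of 6, a difference of 16.7 percentage points with a 95% Newcombe interval from -34.0 to 58.9. With HSPD1 and HSPE1, which heat also induces, counted as inducible, the difference turned to -16.7 points. Within 50 kb the counts were 4 of 4 and 5 of 6. The Newcombe interval treats genes as independent, which neighbours are not, and no test was run. The counts stand side by side and decide no difference between the classes in either direction. For H3K27ac, 1 of 4 inducible genes and 0 of 6 constitutive genes had a summit within 1000 bases of an end, against 0.849% of all genes. From start sites no member had one, against 0.757%. The class comparison for H3K27ac rests on the 1 summit past HSPA1B.

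**Figure D3:**
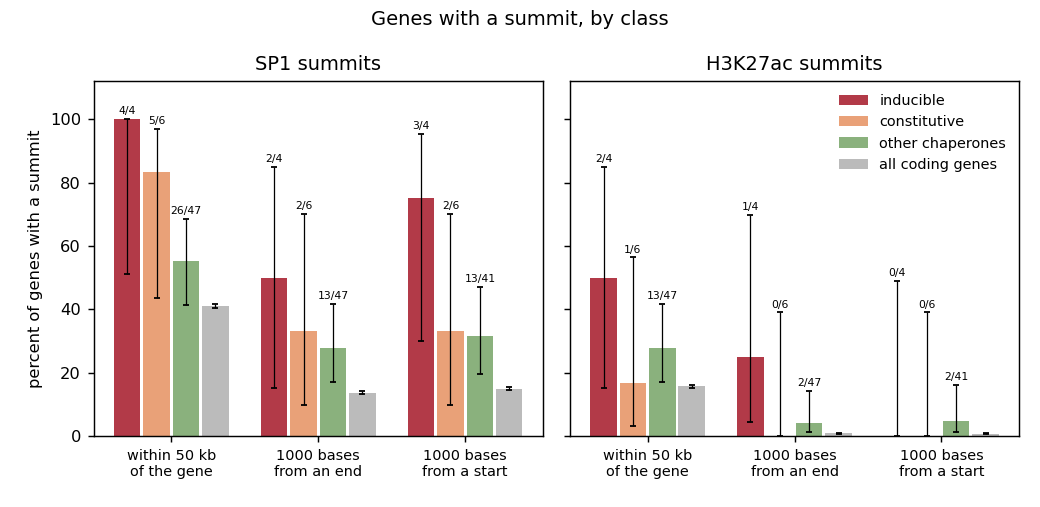
Percent of genes with a called SP1 summit (left) or H3K27ac summit (right) within 50 kb of the gene, within 1000 bases of a gene end and within 1000 bases of a start site. Bars are the 4 inducible genes, 6 constitutive genes, other chaperone genes and all protein-coding genes, with 95% Wilson intervals, and counts above all but the last; the intervals of the 2 member classes overlap widely in each comparison.

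The scores of the 2 classes overlapped as well. Within 1000 bases of their starts the inducible genes had scores of 4.91, 7.30 and 9.05 (DNAJB1), 10.3 (HSP90AA1) and 18.4 (HSPA1B). The constitutive genes had 6.36 (HSPA1L) and 6.69 (HSP90AB1). The 9.05 summit lay nearer to a start of TECR, and the 10.3 summit nearer to one of WDR20. The remaining summits lay nearest to a start of the gene named. SP1 summits within 1000 bases of any protein-coding start had a median of 8.18 with quartiles of 6.13 and 11.8. Thus HSPA1B stood above the upper quartile, DNAJB1's weakest summit was below the lower quartile, and the 2 constitutive summits were between the lower quartile and the median.

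**Figure D4:**
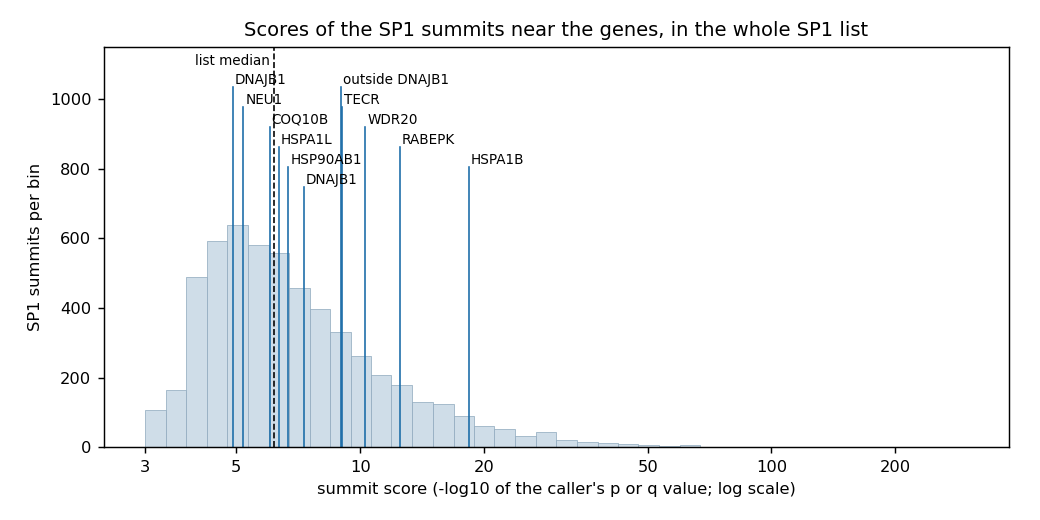
Histogram of all SP1 summit scores (−log10 of the caller's p or q value, log axis; the y axis counts summits per bin), with lines at the 11 summits near heat shock protein genes, each named by the protein-coding gene with a start within 1000 bases, or as outside DNAJB1 where there was none. HSPA1B, at 18.4, is in the upper tail, and the other 10 lie between 4.91 and 12.5.

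The SP1 summits at members were outside the 300-base windows, where most SP1 summits near starts also were. Of the 7 different SP1 summits within 1000 bases of a member start, 0 fell in a 300-base window of any listed gene. Of all 2261 SP1 summits within 1000 bases of a protein-coding start, 23.6% fell in the window of the nearest one. With 7 summits, 0 is near this share. The 7 lay 119 to 835 bases from the nearest protein-coding start, with a median of 272 bases. Over all 2261 the median was 238 bases, with quartiles of 134 and 382. The 3 at HSPA1L, HSPA1B and before start 2 of DNAJB1 were therefore beyond the upper quartile, at 835, 495 and 487 bases.

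GC boxes were present at every listed start. All 16 windows held GGGCGG on 1 strand or the other, with 33 matches in all and a mean of 2.06 per window. Of 22198 windows of protein-coding genes, 56.3% held one and the mean was 1.39. Start 2 of DNAJB1 had the most, with 7, a number reached in 1.99% of windows, and 3 of these run together in the printed sequence. The 7 windows of inducible genes averaged 2.29 matches and the 9 of constitutive genes 1.89. Without start 2 of DNAJB1 the other 6 inducible windows averaged 1.5, and with the longer GGGGCGGGG the means were 0.429 and 0.444, so the order of the classes turns with either choice. An SP1 summit lay within 1000 bases of 8 of the 16 starts. Across all protein-coding windows this was so for 19.6% of those with a GC box and 6.13% of those without. The windows of start 1 of HSPD1 and of HSPE1 hold the same GC box, seen near the left end of the printed stretch. Windows of the HSPA1A and HSPA1L starts share 241 bases, read from opposite strands. Their GC box is the same one and is counted in both classes. Starts of 1 gene can share a summit. A match is a description of these letters and not evidence of binding.

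Heat shock elements were found in members of both classes. At least 1 match to GAANNTTC or TTCNNGAA, forms that read the same on both strands and can overlap, was in a window of 8 of the 10 genes, against 14.9% of protein-coding genes with a listed start. All 4 inducible genes had one, as did HSPA1L, HSP90AB1, HSPA8 and HSPD1 among the constitutive ones. HSPA5 and HSPE1 had none in their windows. The elements of HSPD1 start 2 lie between that start and the HSPE1 start, which are 539 bases apart. They are outside the HSPE1 window. The element of HSPA1L is that of HSPA1A, read from the other strand, and is counted for both. Windows with 3 or more matches numbered 37 of 22198 (0.167%), and 4 of these were at members: start 2 of HSP90AA1, start 3 of HSP90AB1, HSPA8 and start 2 of HSPD1. Windows with 4 matches or more numbered 4, of which 2 belonged to HSPA8 and HSP90AB1. No SP1 summit lay within 1000 bases of any of these 4 member starts; the nearest, at start 3 of HSP90AB1, was 1114 bases away. Of all 37 windows with 3 or more, 5 (13.5%) had one, so the 0 of 4 is near the background. Elements with 3 units in a row (GAANNTTC extended by NNGAA, or TTCNNGAA by NNTTC) were in 0.405% of all windows, and the same 4 member starts held one. Of the 9 member windows with at least 1 element, 4 had an SP1 summit within 1000 bases of the start, against 12.4% of all such windows: starts 2 and 3 of DNAJB1, HSPA1B and HSPA1L. Starts 2 and 3 of DNAJB1 share a summit.

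CCAAT boxes, in either orientation, were in windows of 7 of the 10 genes, against 42.1% of protein-coding genes with a listed start. They were in all 4 inducible genes and in 3 of the 6 constitutive ones. HSPA5 had 5 of them, the most among the members, and HSPA1A and HSPA1B, whose windows are nearly identical, had 2 each. Those of HSPA1L are the ones of HSPA1A, read from the other strand. TATAAA on the gene strand was in the windows of HSPA1A and HSPA1B alone, against 6.48% of all windows. Only these exact letters were searched. Related letters such as TATATAA, seen in the printed sequences of HSPA5 and of start 2 of HSP90AA1, were not counted.

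**Figure D5:**
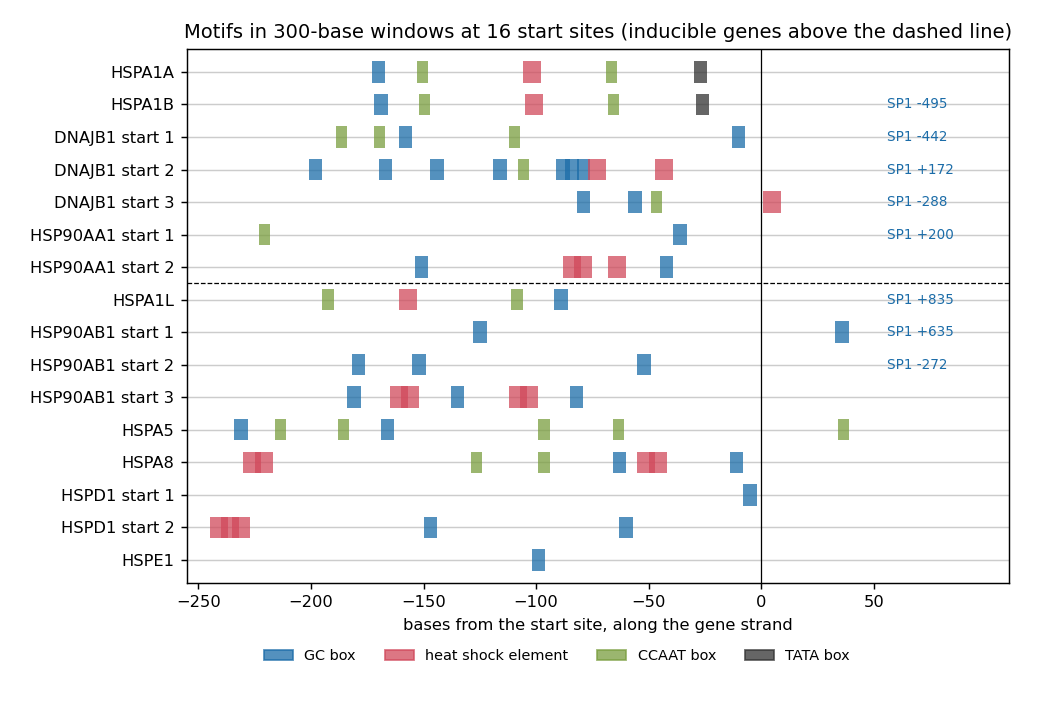
Positions of GC boxes, heat shock elements, CCAAT boxes and TATAAA boxes in the 300-base windows of the 16 start sites, in bases from the start along the gene strand, with the offset of the nearest SP1 summit at the right where it is within 1000 bases. Each row has a GC box, and heat shock elements stand in 9 rows, of which 4 carry an SP1 offset.

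Other genes of the chaperone network were looked up from a list of 48, of which 47 matched the gene table. An SP1 summit was within 1000 bases of an end of 13 of the 47 (27.7%, Wilson interval 16.9 to 41.8%), against 13.7% of all genes. STUB1, a ubiquitin ligase that works with HSP70, had the highest score, 32.3 at 204 bases. Next were CCT3, a subunit of the cytosolic chaperonin, with 12.6 at 384 bases, and AHSA1, an activator of the HSP90 ATPase, with 12.5 at 18 bases. HSPBP1, a nucleotide exchange factor of HSP70, had 12.1 at 307 bases. IFT25, listed as HSPB11, had 11.0 at 86 bases.

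STIP1, which links HSP70 to HSP90, had a score of 7.95 at 274 bases. The chaperonin genes CCT8, CCT4 and TCP1 had 7.94, 5.36 and 3.61. DNAJA2 had 7.55, HSPA13 5.07, HSP90B1, the HSP90 of the endoplasmic reticulum, 4.65, and HSPH1, a large HSP70 relative, 4.40. The HSP90B1 summit, at 219 bases, thus had a score below the lower quartile of the SP1 list, 4.77. HSPA5, its HSP70 partner in the endoplasmic reticulum, had its nearest SP1 summit 34223 bases away. Most genes had no SP1 summit at an end. HSF1, the regulator of the heat shock response, had its nearest SP1 summit 43981 bases from an end, with a score of 8.36.

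H3K27ac summits were at an end of 2 of the 47 genes. HSPA9, the mitochondrial HSP70, had a score of 3.81 at 219 bases, and DNAJB4 had 5.94 at 642 bases. The share was 4.26% (1.17 to 14.2%), against 0.849% of all genes. The HSPA9 score was below the lower quartile of the H3K27ac list, 4.24. Measured from listed starts, DNAJB4 had an H3K27ac summit of 6.08 at 342 bases and an SP1 summit of 4.71 at 124 bases. That SP1 summit was not within 1000 bases of a gene end. HSPD1 and HSPE1 had no H3K27ac summit at an end, as was so for nearly all genes.

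Of 11 cell type marker genes, 1 (9.09%) had an SP1 summit within 1000 bases of an end, against 13.7% of all genes. This was NAPSA, an aspartic protease of alveolar cells, with a score of 6.69 at 410 bases. NKX2-1, SFTPB, SFTPC and KRT7, and the blood, neuron and liver genes, had none there, and no marker had an H3K27ac summit there. Summits do not measure expression, so the cell type was not checked beyond this.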

How the data were processed

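Per the submitters' processing notes, coordinates are on hg38; the notes also name cutadapt 2.5 and deepTools 3.4.1 without their roles. The aligner, peak caller, its control and the depth remain not given in the sources used here. Deposited summit lists hold 1 base per summit with the −log10 of a p or q value, the lowest being just above 3. The deposited region lists give start, end and a score that is the region's rank.

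Members and gene lists were chosen with earlier results of these data known. Genes, spans and start sites are RefSeq's for GRCh38.p14; start sites were listed for 15842 of 20033 protein-coding genes, on 23 of 24 chromosomes. The genes named are the 10 members, other chaperone genes with a summit at an end, HSF1 (chosen after its values were seen), the markers, and neighbours that hold a listed summit or have an end or start within 1000 bases of one, with GIPC1, the gene with the nearest start to 1 summit, chosen after its values were seen. Distances are in bases, coordinates 1-based. Windows were aligned globally (match 1, mismatch -1, gap opening -5, extension -1) with Biopython 1.88. Wilson and Newcombe intervals are at 95%. The search functions were tested on simulated data. Alternatives covered distances, score minimums, start sites, class membership, loci and the motif.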

Additional observations from a re-analysis of the deposited data

How the results depend on the processing

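No paired analysis was possible because each antibody had 1 library. Of 39 alternatives, 30 stayed within 1.5 times a count or inside the interval of a difference, 8 moved and 1 changed sign. For the differences this limit was loose, since the intervals were wide (-34.0 to 58.9 percentage points for SP1 at gene ends). A fall from 16.7 to 0.0 points counted as staying. The tally therefore does not show that the differences between the classes are stable. The count of members with SP1 within 50 kb fell from 9 to 6 within 10 kb and to 6 above the upper quartile of the score. Both falls counted as staying, at the edge of the limit. The count of members with H3K27ac within 50 kb fell from 3 to 1 within 10 kb and to 0 above the upper quartile of the score. Members with SP1 at a gene end numbered 2, not 4, within 500 bases, and 2 above the upper quartile. The 1 member with H3K27ac at an end gave 0 within 500 bases, 0 from start sites and 0 above the upper quartile. The SP1 difference between inducible and constitutive members went from 16.7 to -16.7 percentage points with HSPD1 and HSPE1 as inducible and to 0.0 with HSPA5 as inducible. Within 500 bases it was widest, with 2 of 4 against 0 of 6, and it was 41.7 from start sites, an alternative chosen after seeing the data. GC boxes per window went from 2.06 to 0.438 with GGGGCGGGG. These follow from fewer summits, a narrower window, a longer motif or the changed classes. What depth limits cannot be said, since it is unknown.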
